A study of Drosophila melanogaster with 16 samples.

Results

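The inner photoreceptors R7 and R8 of the fruit fly (Drosophila melanogaster) were compared with the lamina neurons L1 to L5, over all genes with an RPKM of 1 or more in at least 2 libraries. These were 9346 of the 15682 genes listed. RPKM is the number of reads on a gene scaled to its length and to the depth of the library. The 16 libraries came from cells sorted by flow cytometry and comprised 4 of photoreceptors (2 of R7 and 2 of R8) and 12 of lamina neurons (4 of L3 and 2 of each other type). Every library was labelled wild type and as optical lobe tissue, with no treatment, and the labels name no reporter for the sort. The labels disagreed on age. By the age field, counted from pupal formation, L1 was taken at 24 h, L2 at 35 h, L3 at 40 h, L4 at 45 h, L5 at 53 h, R7 at 65 h and R8 at 96 h. By the dissection protocol all were taken at 40 h. The column headers of the 12 lamina libraries also hold a 40, and those of R7 and R8 hold no age. Should the age field be right, age and class cannot be told apart. No label states that replicates are different animals or sorts, so p-values reflect only how these libraries vary, and that variation may be technical.

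R7 and R8 occupy the centre of each unit eye and detect light in the rhabdomere, an apical stack of membrane packed with rhodopsin. Light-activated rhodopsin drives a G protein, phospholipase C and TRP channels, and the axons release histamine in the medulla. In the lamina, L1 to L3 are the main direct targets of the outer photoreceptors, L4 and L5 get much of their input through other lamina cells, and all of them send axons to the medulla, so both classes share a target region and must choose partners there during pupal life.

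Of 5 photoreceptor markers tested, 4 were higher in R and 1, the neuronal gene elav, was lower. Of 14 lamina neuron markers, 12 were lower in R (4 with 2 pooled classes) and 2, eya and so, were higher. The lamina markers summed to 65.4 to 87.5 RPKM in R and 331 to 1431 in L. The rhabdomere glycoprotein gene chp stood at 1318 and 1371 RPKM in R7 and at 875 and 1088 in R8, against a lowest value of 1.72, a median of 7.48 and a highest value of 59.1 in the 12 lamina libraries. The light-gated channel gene trp stood at 643 and 798 in R7 and 246 and 375 in R8, against 0.424, 4.21 and 32.2. All 4 photoreceptor libraries lay above all 12 lamina libraries for both genes, and the highest lamina values were those of L3. Markers of other cells were not all low or shared. Of 9 blood cell markers, Hml, srp, nimC1, eater and He stayed under 1 RPKM in every library. Of 4 outer photoreceptor markers, ninaE and ro were also under 1 everywhere, but the 4 summed to 46.3 and 55.6 in the L1 libraries against at most 5.43 in R. Most of this was svp, a marker also listed for lamina neurons, at 49.7 ± 6.36 in L1 and 3.21 ± 0.258 in R8. Its call (lower in R, -0.31 ± 0.11, adjusted p = 0.0244) was lost without L1 replicate 2 or any 1 R library (adjusted p = 0.0512 to 0.105), with 2 pooled classes and with a pseudocount of 0.1 (adjusted p = 0.87 and 0.804). The summed level of the 9 blood cell markers ran from 25.9 to 36.6 in R. It was 23.4 and 26.2 in L2 and 83.8 to 299 in the other lamina libraries, mostly from Pxn. Pxn was lower in R, with a log2 difference of -6.30 to -6.15 when 1 library was left out. Glial markers summed to 35.3 to 52.5 in R and 20 to 52.5 in L, and fat body markers to 0.78 to 1.04 and 1.44 to 15.4. Precursor markers reached at most 8.83, and cone and pigment cell markers ran from 257 to 543 in R and from 59.4 to 1061 in L, where w in L1 averaged 955 ± 144. The part of these markers in the results was not tested. Depth recovered from the smallest values ran from 47.05 to 153.6 M reads per library. In sorted bulk RNA, fewer expressing cells and less RNA per cell cannot be told apart.

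More than 6 in 10 genes differed between the classes, and no direction prevailed. Of 9346 genes, 2963 (31.7%) were called higher and 2821 (30.2%) lower in R, with limma on log2(RPKM + 1) and adjusted p under 0.05, so 61.9% were called either way. The contrast set the mean of the R7 and R8 means against the mean of the L1 to L5 means. The median difference was -0.02 over all genes, 0.97 among those higher and -0.88 among those lower. A log2 difference beyond 3 was found in 168 genes higher in R and 151 lower. A test against a 2-fold change called 709 higher and 617 lower, and 22 of the 127 called genes named in the text lost their call there. When all R and all L libraries were pooled as 2 classes, so that differences among types count as error, 2317 were higher and 1842 lower. Counts in the gene lists below stand against these shares of all genes. They are 31.7% higher and 30.2% lower, or 2317 and 1842 of 9346 with 2 pooled classes. Differences are on the log2(RPKM + 1) scale, which understates the change of genes near 0, and means are given ± SD over 2 libraries (4 for L3).

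Many of the differences held for the whole of both classes. For 1384 genes (14.8%) every R library lay above every L library, and for 1092 (11.7%) every L library lay above every R library. Of the genes called higher in R, 1382 (46.6%) had all 5 lamina types wholly below every R library, 729 had 4 and 455 had 3. Among the genes called lower, 1081 (38.3%) had all 5 lamina types wholly above, 726 had 4 and 583 had 3. At the other end, 79 genes called higher and 15 called lower had no lamina type wholly beyond the R libraries. Where only 1 lamina type broke the pattern of a gene higher in R, it was L2 for 255 genes and L3 for 243. For genes lower in R the exception was most often L3, for 275 genes.

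**Figure D1:**
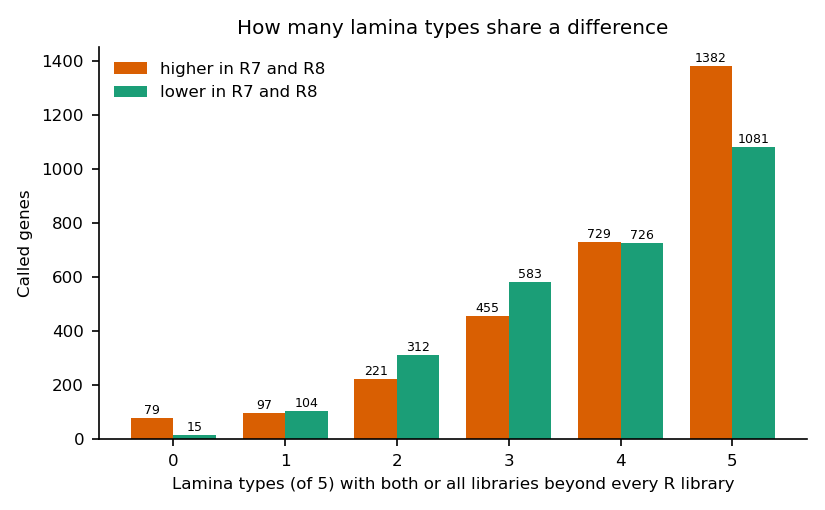
Bars count the genes called higher (orange) or lower (green) in R7 and R8, by the number of the 5 lamina types whose libraries all lay beyond every R library. The tallest bars are those for all 5 types, 1382 genes higher and 1081 lower.

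The genes with the widest gap above the lamina included eye transcription factors, phototransduction genes and rhabdomere components. By the naming rule (every R library at 10 RPKM or more, ranked by the gap between the lowest R and the highest L library) they were CG31636, salr, Gbeta76C, ninaC, salm, Tsp47F, Pph13, kst, snoRNA:Me28S-A1322, CG32082, ltd, ninaG, inaD, chp and inaC. The paired spalt genes salm and salr encode zinc-finger factors of inner photoreceptor identity. For salm the values were 90.7 and 89.6 RPKM in R7 and 50 and 37 in R8, against 0.0429, 0.226 and 0.645 (lowest, median and highest) in the lamina. No lamina library reached 1 RPKM, and both R7 libraries lay above both R8 libraries (log2 difference 5.72 ± 0.11 SE, adjusted p = 1.94e-12). Its neighbour salr showed the same order, with 161 ± 16.3 in R7 and 99.6 ± 21.2 in R8, and no lamina library above 1.73.

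A Rab GTPase and membrane-shaping genes stood beside the visual genes. The gene ltd, now named Rab32 after the GTPase of lysosome-related organelles such as pigment granules, stood at 703 and 686 RPKM in R7 and 649 and 610.0 in R8, against 1.49, 15.7 and 34.3 in the lamina. The 4 R values lay close together, and every one was far above the lamina range (log2 difference 5.76 ± 0.27, adjusted p = 1.15e-09). CG32082, now IRSp53, a membrane-curving protein that links to actin, averaged 232 ± 13.1 in R7 and 202 ± 0.899 in R8, and the lamina types ranged from 1.35 to 9.37. A small nucleolar RNA that guides methylation of the large ribosomal RNA, snoRNA:Me28S-A1322, was at 87.7 to 112 in R and at most 3.68 in L. RPKM of so short a gene depends on how short fragments were counted.

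On the lamina side, the genes with the widest gaps included transmitter receptors, metalloproteases and an RNA-binding protein. The genes were scro, CG3822, nAcRbeta-96A, tok, Alk, miple, CG7781, Shawl, GABA-B-R2, nAcRbeta-64B, CG30172, CR43080, fne, CG14853 and mmd. The metabotropic GABA receptor subunit gene GABA-B-R2 was at 7.31 and 8.19 RPKM in R7 and 6.03 and 5.23 in R8, against 128, 159 and 274 in the lamina. The lamina types were alike, at 143 to 225 on average, and none came near R (log2 difference -4.43 ± 0.13, adjusted p = 2.21e-11). Shawl, a voltage-gated potassium channel gene, averaged 20.4 ± 1.08 (L2) to 70.5 ± 10.5 (L3) in the lamina and 0.185 ± 0.036 and 0.258 ± 0.0236 in R7 and R8, although 14.2% of its exonic bases overlap another gene. The transmembrane metalloprotease gene mmd was at 106 to 177 in the lamina and 5.87 to 8.77 in R. The secreted metalloprotease gene tok, of the tolloid family that cleaves extracellular proteins, was at 59.4 to 133 against 0.603 to 2.

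The RNA-binding protein gene fne, a relative of elav, was among the genes lowest in R. It stood at 15.1 and 19 RPKM in R7 and 14 and 12.7 in R8, against 238, 449.8 and 969 in the lamina, and L4 and L5 lay above L1 and L2 (log2 difference -4.82 ± 0.19, adjusted p = 2.41e-10). Of 15 pan-neuronal genes tested, 3 were higher in R and 7 lower, with a median of -0.32, against 31.7% and 30.2% of all genes and a median of -0.02. The third member of the elav family, Rbp9, went the other way, at 95.8 ± 5.07 in R7 and 74.8 ± 2.26 in R8, and the lamina types ranged from 28.4 to 41 (log2 difference 1.20 ± 0.14, adjusted p = 8.37e-06). The family member elav itself was lower in R by -1.19 ± 0.18, with 34.2% of its exonic bases shared with another gene.

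**Figure D2:**
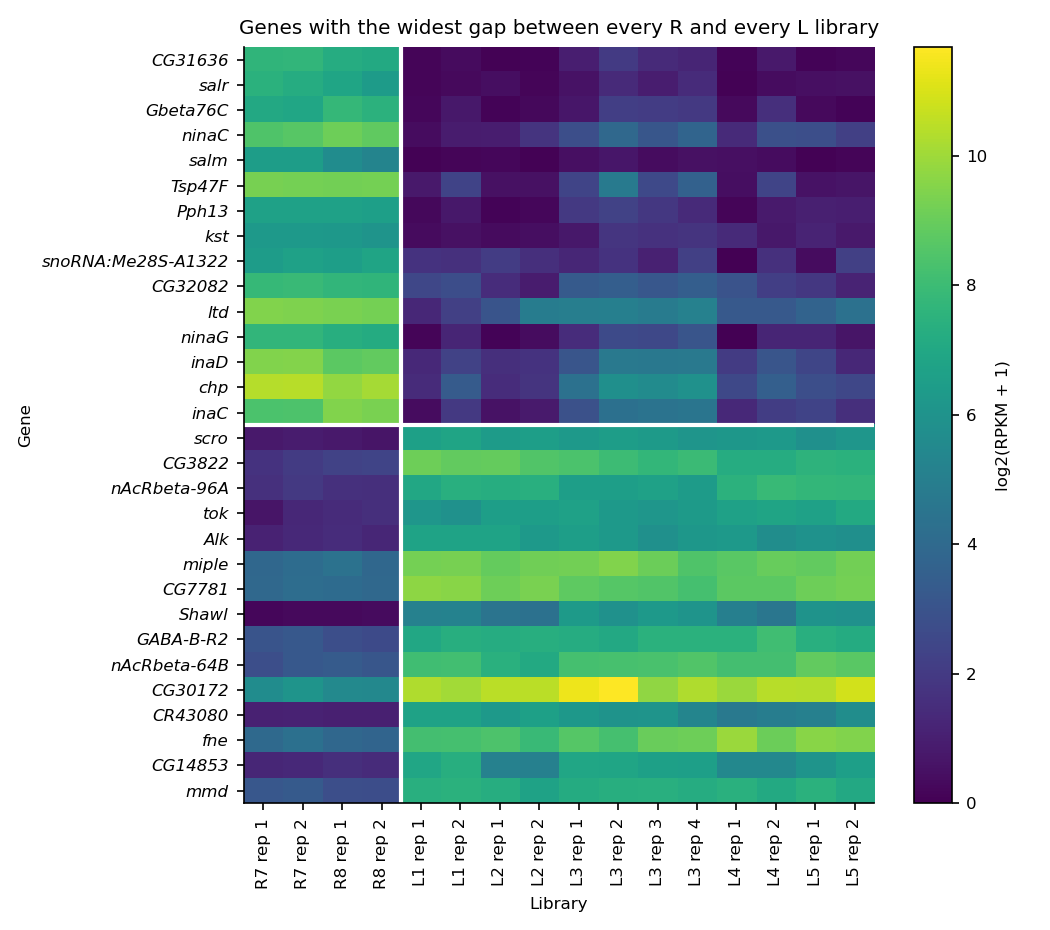
Each row is a gene named by the rule and each column a library, with colour showing log2(RPKM + 1) from 0 upward. White lines separate the 4 R from the 12 L libraries and the 15 genes higher in R from the 15 lower, and L3 is the lamina type with the most colour among the upper genes (chp 45.5 ± 17.9 RPKM, against at most 7.75 in another lamina type).

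Genes of the light response did not all differ in the same direction. Among 15 genes of visual G proteins, channels and scaffold, 10 were higher in R and 4 lower, with a median of 3.14. The eye-specific beta subunit gene Gbeta76C was at 129.5 and 117 RPKM in R7 and 221 and 179.6 in R8, against 0.0883, 0.431 and 3.42 in the lamina. Both R types were far above all lamina types, and R8 was above R7 (log2 difference 6.60 ± 0.27, adjusted p = 3.79e-10). The broadly used beta subunit gene Gbeta13F was lower in R, at 305 ± 2.02 and 295 ± 6.35 against 413 to 539 in the lamina types (-0.71 ± 0.17, adjusted p = 0.00297). The alpha subunit gene of the visual G protein, Galpha49B, differed little, by 0.50 ± 0.11, with 44.1% of its exonic bases overlapped.

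Channel and phospholipase genes did not follow trp. Its partner in light-gated current, trpl, was at 0.453 and 0.637 RPKM in R7 and 0.304 and 0.125 in R8, against 0.281, 4.18 and 11.4 in the lamina. Only L5 reached down into the R range, and the other 4 lamina types lay above it (-1.72 ± 0.19, adjusted p = 3.83e-06). The phospholipase C gene of phototransduction, norpA, was at 6.76 and 6.31 in R7 and 10.2 and 8.63 in R8, against 10.4, 15.4 and 33.6. Every lamina library was above every R library, by the narrowest of margins (-1.07 ± 0.25, adjusted p = 0.00219).

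Genes that recycle the phosphoinositide substrate were mostly higher in R. Of 16 tested, 9 were higher and 2 lower, with a median of 0.51, and the 2 lower were both phospholipases, norpA and Plc21C. The rhodopsin phosphatase gene rdgC reached 49 ± 7.38 RPKM in R7 and 127 ± 28.8 in R8, and lamina types averaged 0.436 to 7.07 (5.11 ± 0.17, adjusted p = 6.74e-11). The transfer protein gene rdgB, which carries lipid back to the light-sensing membrane, was at 14.6 to 17 in R and 2.3 to 6.24 in L. The diacylglycerol kinase gene rdgA was also higher in R by 2.21 ± 0.21, but L5, at 53.9 ± 12.5, lay between R8 at 36.6 ± 5.02 and R7 at 65.6 ± 0.436. The genes of the next synthetic steps, Pis and CdsA, were higher by 1.26 and 1.16, with 11.7% of the exonic bases of CdsA overlapped.

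Genes for making rhodopsin and its chromophore were higher in R, with R7 and R8 apart for some. Of 12 tested, 8 were higher and 1 lower, with a median of 1.0, and 5 were higher when either R7 library was left out. The 1 lower became 2 under quantile normalization. The chaperone gene Cnx99A, a calnexin that rhodopsin needs to mature, was at 1914 and 1923 RPKM in R7 and 1048 and 1179.6 in R8, against 146, 208 and 297 in the lamina. Each R library held at least 3 times the highest lamina value (2.81 ± 0.15, adjusted p = 3.81e-09). The oxidoreductase gene ninaG, needed for the fly chromophore, was at 145 to 206 in R and at most 7.56 in L. The rhodopsin chaperone gene ninaA was higher by 5.77, although all of its exonic bases overlap another gene. A pair of carotenoid genes separated R7 from R8. The cleaving enzyme gene ninaB was at 17.8 ± 0.128 in R8 and 0.842 ± 0.0488 in R7, whereas the scavenger receptor gene santa-maria was at 9.14 ± 0.51 in R7 and 0.968 ± 0.00863 in R8.

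The apical membrane genes of the rhabdomere stalk stood out within a list that was otherwise mixed. Of 21 genes of apical polarity and the rhabdomere, 10 were higher in R and 3 lower, against 31.7% and 30.2% of all genes. The median was 0.21. The 3 lower became 5 under quantile normalization and 1 without R7 replicate 2 or R8 replicate 1. The microvillar protein gene prom was at 163 and 174 RPKM in R7 and 166 and 174 in R8, against 1.48, 2.89 and 11 in the lamina. R7 and R8 were alike and far above every lamina library (5.44 ± 0.25, adjusted p = 1.04e-09). The heavy beta-spectrin gene kst, which braces the apical domain, was at 65.3 to 79.6 in R and 0.276 to 2.47 in L. The general beta-Spec gene was lower in R by -0.52 ± 0.18, a call lost without any 1 of the 4 R libraries, when the adjusted p was 0.0585 to 0.0808.

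The gene of the apical determinant Crumbs and that of its scaffold were higher in R. The transmembrane gene crb averaged 15.1 ± 1.15 RPKM in R7 and 20.1 ± 2.37 in R8, and the lamina types ranged from 0.433 to 2.96 (2.94 ± 0.17, adjusted p = 1.24e-08). Its scaffold gene sdt averaged 129.8 ± 1.64 and 131 ± 14.4 against 2.11 to 37.3 (3.27 ± 0.11, adjusted p = 4.83e-11). The polarity kinase gene aPKC was called higher, but L3, at 27.3 ± 2.19, exceeded R7 at 11 ± 1.87 and R8 at 12.6 ± 0.131, and the call was lost with 2 pooled classes (adjusted p = 0.264). The spacer protein gene eys, which separates rhabdomeres, was at 16.2 and 23.8 in R8 but 2.35 and 2.77 in R7, within the lamina range of 0.137 to 15.7, and its call was lost with 2 pooled classes as well (adjusted p = 0.232).

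**Figure D3:**
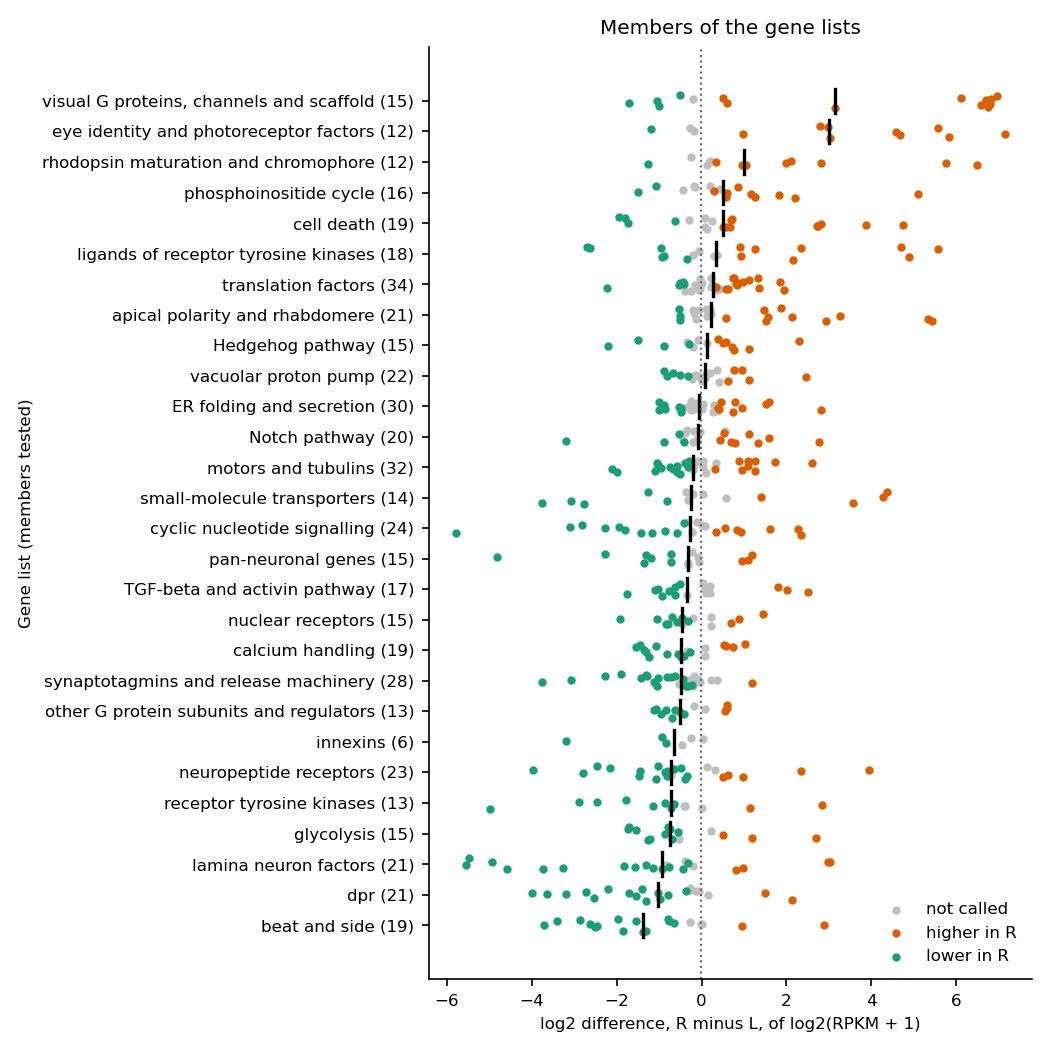
Each point is a tested gene placed at its log2 difference (R minus L), grouped by gene list, orange where called higher, green where called lower and grey where not called. Black bars are list medians, from 3.14 for the visual G proteins and channels to -1.38 for beat and side, and the dotted line is the median of all genes (-0.02).

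Ligand genes of receptor tyrosine kinases went both ways, and the EGF ligand genes spi and Krn were higher in photoreceptors. Among 18 genes of these ligands and their processing, 8 were higher in R and 6 lower, against 31.7% and 30.2% of all genes. The median was 0.33, and 3 were lower with 2 pooled classes. The EGF ligand gene spi was at 795 and 727 RPKM in R7 and 553 and 462 in R8, against 173, 268 and 364 in the lamina. It was high everywhere and higher still in every R library (1.26 ± 0.13, adjusted p = 2.12e-06). The related ligand gene Krn was at 36.6 to 42.7 in R and 4.11 to 10.6 in L (2.34 ± 0.17), with 21.3% of its exonic bases overlapped.

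Rhomboid proteases activate these ligands. The rhomboid gene ru averaged 35.9 ± 2.84 RPKM in R7 and 82.5 ± 5.56 in R8 and did not exceed 3.36 in a lamina library (4.88 ± 0.17, adjusted p = 9.08e-11). The rhomboid gene rho averaged 34.8 ± 1.41 and 22.6 ± 0.236, above 4 lamina types at 0.986 to 2.7 but below L3 at 191 ± 21. Its call was lost with 2 pooled classes (adjusted p = 0.454). The secreted EGF antagonist gene aos was called lower in R by -2.63 ± 0.12, mainly through L4 at 191 ± 24.8 and L1 at 37.9 ± 2.31, and this call was lost with 2 pooled classes too (adjusted p = 0.0865). The receptor gene Egfr stayed at or below 0.353 in R and 4.42 in L.

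The FGF ligand gene bnl and the Sevenless ligand gene boss were near 0 in most of the lamina. The gene bnl was at 54.3 and 55.5 RPKM in R7 and 17.6 and 17.2 in R8, against 0.011, 0.145 and 1.17, so that R7, R8 and the lamina formed 3 separate ranges (4.71 ± 0.18, adjusted p = 1.69e-10). The gene boss, whose product on R8 instructs R7 in the eye disc, was at 128 and 156 in R7 and 149 and 184 in R8, against 0.45, 2.43 and 17.8 (5.56 ± 0.30, adjusted p = 5.67e-09). R7 and R8 overlapped, and the highest lamina values were those of L3.

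Receptor tyrosine kinases leaned to the lamina. Of 13 tested, 2 were higher in R (1 with 2 pooled classes) and 8 lower, with a median of -0.73. The receptor gene Alk was at 1.14 and 1.53 RPKM in R7 and 1.78 and 1.37 in R8, against 51.7, 78.1 and 109.8 in the lamina. Every lamina type expressed it well above R, from 57.6 ± 4.48 in L5 to 109 ± 1.43 in L1 (-5.0 ± 0.14, adjusted p = 2.09e-11). The secreted heparin-binding gene miple, of the midkine family, was at 14 to 20.3 in R and 354 to 698 in L (-4.94 ± 0.17). The known Alk ligand gene jeb was not called (-0.05 ± 0.17, adjusted p = 0.801) and averaged 179 ± 6.19 in R7, 108 ± 2.93 in R8 and 62.4 to 324 in the lamina types.

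Other kinases and a growth factor were also lower. The Wnt-binding receptor gene Ror was at 17.7 to 26.8 RPKM in R and 60.1 to 98.3 in L. Nrk and Ddr were lower in R by -2.89 and -2.46. The PDGF and VEGF-related ligand gene Pvf3 averaged at most 0.34 ± 0.0822 in R and 2.32 to 14.2 in the lamina types (-2.71 ± 0.18, adjusted p = 2.92e-08). An exception was otk, a kinase-like Wnt co-receptor gene, at 69.5 and 63.1 in R7 and 52.8 and 52.7 in R8. Its L1 libraries, at 49.7 ± 3.08 on average, came nearest, and L2, L4 and L5 lay at 1.16 to 3.32 (2.83 ± 0.12, adjusted p = 7.19e-10).

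Of 17 TGF-beta and activin pathway genes tested, 3 were higher in R and 8 lower, against 31.7% and 30.2% of all genes. The median was -0.35, and 5 were lower with 2 pooled classes. The activin ligand gene Actbeta was at 112 and 99.4 RPKM in R7 and 75.8 and 54.2 in R8, against 14.2, 20.6 and 28.3 in the lamina (2.0 ± 0.14, adjusted p = 5.94e-08). All R libraries were above all L libraries, and R7 was above R8. The inhibitory Smad gene Dad averaged 45.8 ± 1.78 and 35.9 ± 3.67 against 0.746 to 17.3 (2.51 ± 0.14). The Smad genes Med and Smox and the ligand gene mav were lower in R by -1.10, -1.02 and -1.76, while the activin receptor gene babo was not called (0.20 ± 0.12, adjusted p = 0.167).

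In the Notch pathway the receptor gene was lower in R and a ligand-activating ligase gene higher. N was at 0.94 and 0.914 RPKM in R7 and 3.31 and 4.2 in R8, against 8.07, 26.3 and 63.6 in the lamina (-3.19 ± 0.30, adjusted p = 1.05e-06). The ligand-activating ubiquitin ligase gene neur was at 19.5 to 22.8 in R and 1.09 to 4.51 in L (2.76 ± 0.11), with 38.8% of its exonic bases overlapped. For both genes the classes did not overlap. Of 20 pathway genes, 8 were higher in R and 4 lower, against 31.7% and 30.2% of all genes (median -0.07). With 2 pooled classes 5 were higher and 2 lower, and 2 were lower without R8 replicate 2. In the Hedgehog pathway, 7 of 15 were higher and 4 lower (median 0.14), against the same shares of all genes. With 2 pooled classes 4 were higher. The heparan sulfate synthesis gene ttv was lower by -2.20 ± 0.13, at 4.05 to 4.77 in R and 16.4 to 41.9 in L, and the glypican gene dlp higher by 2.29 ± 0.22.

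**Figure D4:**
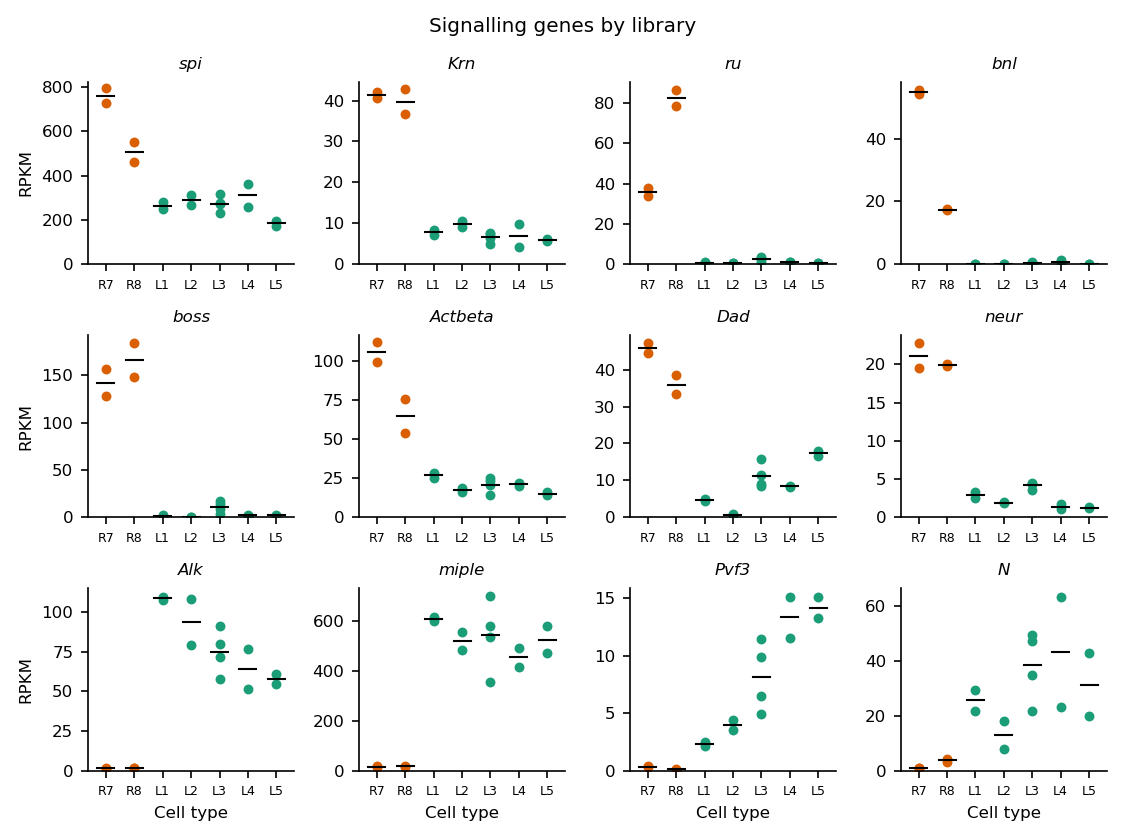
Points are libraries, orange for R7 and R8 and green for L1 to L5, in RPKM on axes that start at 0, and black lines are type means. The genes spi, Krn, ru, bnl, boss, Actbeta, Dad and neur are higher in every R library than in any L library, and Alk, miple, Pvf3 and N are lower.

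The immunoglobulin families of the cell surface were mostly lower in photoreceptors, and many of their members were high in some lamina types only. The dpr genes encode surface receptors that pair with DIP proteins on partner cells. Of 21 tested, 2 were higher in R and 14 lower, with a median of -1.02, but 6 were lower with 2 pooled classes. Of the 14, 4 had every L library above every R library, against 38.3% of all genes called lower. The clearest was dpr14, at 0.936 and 1.85 RPKM in R7 and 1.1 and 0.784 in R8, against 23.6, 33.1 and 49.5 in the lamina. It was even over the lamina, at 27.1 to 37.5 by type (-4.0 ± 0.20, adjusted p = 2.34e-09). By contrast dpr3 was at 117 ± 5.69 in L3 and 21.6 ± 0.101 in L1 but at or below 1.01 in the other types, R included, and its call was lost with 2 pooled classes (adjusted p = 0.0938). The 2 genes higher in R were dpr9, at 24.3 to 40 in R and 2.1 to 19.2 in L, and dpr11, at 9.35 ± 1.44 in R7 and 2.72 ± 0.621 in R8, and the lamina types ranged from 0.197 to 4.81. Without L3, 4 dpr genes were higher in R.

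The beat and side families, whose products bind each other across cells, gave the lowest median of all lists, -1.38. Of 19 tested, 2 were higher and 14 lower in R, which became 1 and 6 with 2 pooled classes. Only side had every L library above every R library, against 38.3% of all genes called lower. The gene side was at 4.97 to 8.33 RPKM in R and from 9.11 to 379.6 in L, lowest in L2 and highest in L3 (-2.62 ± 0.27, adjusted p = 2.37e-06). The greatest difference was that of beat-VI, at 1 to 1.61 in R against 177 ± 9.95 in L5 and 74.4 ± 8.98 in L1, but L2 was at 0.849 ± 0.246, level with R (-3.72 ± 0.10). The gene beat-IIIc was higher in R, at 22.3 and 27.2 in R7 and 152 and 135 in R8, and the L4 libraries were far apart, at 25.4 ± 22.9 on average (2.87 ± 0.44, adjusted p = 8.84e-05).

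**Figure D5:**
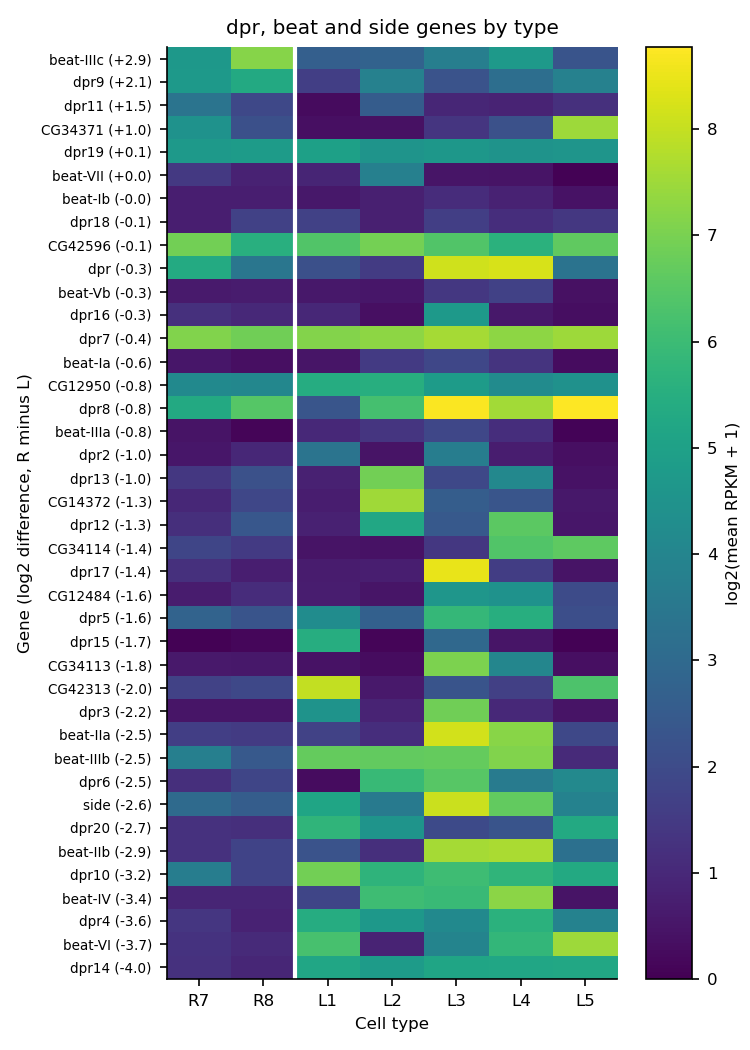
Rows are the dpr, beat and side genes tested, ordered by the log2 difference given beside each name, and columns are cell types. Colour is log2 of the mean RPKM plus 1. The R columns are dark in most of the lower rows, and dpr14, dpr4, dpr10, dpr20 and side are the genes with every L library above every R library.

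Gap junction and peptide receptor genes were also tilted to the lamina. Of 6 innexins, 3 were lower in R (1 with 2 pooled classes) and 0 higher, against 30.2% and 31.7% of all genes. The electrical synapse gene shakB was at 3.19 and 4.06 RPKM in R7 and 29 and 30 in R8, against 19.5, 107 and 457 in the lamina. R8 lay within the lamina range, level with L5 at 25.1 ± 7.88, and R7 lay below it (-3.20 ± 0.22, adjusted p = 4.36e-08). Of 23 neuropeptide receptors, 5 were higher in R and 15 lower (median -0.72), and 8 were lower with 2 pooled classes. The FMRFamide receptor gene FR, now FMRFaR, was at or below 0.25 in R and averaged 18.4 to 43.6 in L2 to L5 and 0.953 ± 0.166 in L1 (-3.96 ± 0.21). The glycoprotein hormone receptor gene Lgr1 was the reverse, at 23.8 and 20.1 in R7 and 11.8 and 11.8 in R8 against a highest lamina value of 0.483 (3.96 ± 0.11, adjusted p = 2.1e-11).

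Second messenger genes were mixed, and calcium genes were mostly lower in R. Of 24 genes of cyclic nucleotide signalling, 7 were higher and 11 lower (median -0.27), against 31.7% and 30.2% of all genes. With 2 pooled classes 4 were higher. The regulatory kinase subunit gene Pka-R2 was at 8.41 to 11.6 RPKM in R and 39.4 to 306 in L (-2.83 ± 0.23), and the cAMP exchange factor gene Epac was higher in R by 2.28 ± 0.14, with L4 at 47.3 ± 3.02 in the R range. Of 19 calcium genes, 4 were higher and 12 lower (median -0.48), and these became 2 and 7 with 2 pooled classes, with 2 higher under quantile normalization. The presynaptic calcium channel gene cac and its alpha2-delta subunit gene stj were lower in R by -1.31 ± 0.21 and -1.46 ± 0.14, with every L library above every R library for both.

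Vesicle release genes were lower in R or not called, with 1 exception. Of 28 tested, 17 were lower (11 with 2 pooled classes), 10 were not called and 1 was higher, with a median of -0.49. The vesicle GTPase gene Rab3 was at 18.4 and 17.5 RPKM in R7 and 9.55 and 7.97 in R8, against 34.4, 41.4 and 94.4 in the lamina, with no overlap (-1.89 ± 0.09, adjusted p = 1.9e-09). The vesicular GABA transporter gene VGAT was at 0.183 to 0.382 in R and 6.86 to 13.8 in L (-3.07 ± 0.14). The exception was Sap47, a synapse-associated protein gene, at 423 and 442 in R7 and 120.3 and 124 in R8. Its R7 libraries were above and its R8 libraries within the lamina range of 49.6 to 155 (1.18 ± 0.13, adjusted p = 6.87e-06).

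A transporter of the histamine cycle and an amino acid transporter were far above the lamina in R. The carcinine transporter gene CG9317, now CarT, which returns the histamine precursor to photoreceptors, was at 35.9 and 27 RPKM in R7 and 35.1 and 32.1 in R8, against 0.0784, 0.76 and 1.65 in the lamina (4.37 ± 0.17, adjusted p = 2.22e-10). The amino acid transporter gene Eaat2 averaged 103 ± 2.13 in R7 and stood at 59.3 and 44.3 in R8, against 0.976, 3.31 and 7.43 (4.27 ± 0.16). For neither gene did the classes overlap. Of 14 transporters tested, 4 were higher and 5 lower (3 with 2 pooled classes), with a median of -0.26, shares near the 31.7% and 30.2% of all genes. The monocarboxylate transporter gene Sln was lower in R by -2.77 ± 0.11, at 1.97 to 3.8 against 18.3 to 51.8.

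Sugar breakdown genes were mostly lower in R, with the aldolase and isomerase genes among the exceptions. Of 15 glycolysis genes, 3 were higher and 10 lower, with a median of -0.74. The genes Tpi and Pgk were lower by -1.73 ± 0.18 and -1.70 ± 0.17, at 2.78 to 7.4 and 8.83 to 17.4 RPKM in R against 8.95 to 28.4 and 30.3 to 59.5 in L. The aldolase gene Ald was higher, at 77.7 to 85 in R and 5.27 to 28.5 in L (2.71 ± 0.12, adjusted p = 1.04e-09), and so was the isomerase gene Pgi by 1.20 ± 0.11. For all 4 genes the classes did not overlap.

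Of 34 translation factors, 14 were higher and 5 lower (median 0.28), against 31.7% and 30.2% of all genes. The 5 lower became 3 without R7 replicate 2 or R8 replicate 1 and 2 with 2 pooled classes. The elongation factor subunit gene eEF1delta was at 1015 to 1309.8 RPKM in R and 100.3 to 601 in L (1.94 ± 0.21), and Ef1beta and Ef1gamma were higher by 1.33 and 1.12. The initiation factor gene eIF-2alpha was lower, at 39.4 to 59.6 against 105 to 363 (-2.24 ± 0.20, adjusted p = 5.41e-07), with 12.6% of its exonic bases overlapped. Of 32 motor and tubulin genes, 9 were higher and 14 lower (median -0.21), against the same shares of all genes. The kinesin-2 motor gene Klp64D was at 10.5 to 13.7 in R and 43.4 to 67.2 in L (-2.11 ± 0.10), and the tubulin gene betaTub97EF at 93.9 to 129 and 10.4 to 24.9 (2.60 ± 0.15).

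Several death inducer genes were higher in R, and the main caspase inhibitor gene was lower. Of 19 tested, 10 were higher and 4 lower, with a median of 0.50. The death inducer gene skl was at 31.4 and 34.2 RPKM in R7 and 171 and 118 in R8, against 0.3, 1.74 and 16 in the lamina, with every R library above every L library (4.74 ± 0.34, adjusted p = 6.78e-08). The gene rpr of the same group was at 4.71 to 21.5 in R and 0.037 to 1.49 in L (2.72 ± 0.21), and grim was higher by 3.88 ± 0.17, with 75.9% of its exonic bases overlapped. The inducer gene W, now hid, was lower, by -1.72 ± 0.13, at 1.01 to 3.66 in R and 2.82 to 25.9 in L.

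The caspase inhibitor gene th, now Diap1, was at 70.9 and 76.7 RPKM in R7 and 30.7 and 52 in R8, against 138, 200.2 and 317 in the lamina (-1.96 ± 0.20, adjusted p = 2.46e-06), with 11% of its exonic bases overlapped. The tumour necrosis factor gene egr was at 96.8 and 78.3 in R8 but 3.55 and 2.11 in R7, level with the lamina range of 0.308 to 3.53, so its call (2.74 ± 0.23) rested on R8. The effector caspase gene Ice, now Drice, was higher by 0.70 ± 0.13.

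Among 15 nuclear receptors, 3 were higher in R and 8 lower, against 31.7% and 30.2% of all genes (median -0.46). The ecdysone-induced gene Eip75B was at 54.7 to 62.2 RPKM in R and 160.3 to 386 in L (-1.91 ± 0.16, adjusted p = 4.37e-07), while the ecdysone receptor gene EcR was not called. The fatty acid-sensing receptor gene Hnf4 was higher in R, at 2.78 to 4.64 against 0.431 to 1.31 (1.45 ± 0.10, adjusted p = 3.39e-08). Among 12 eye identity genes, 9 were higher and 1 lower (2 without R7 replicate 1), with a median of 3.0. The Pax6 gene toy was at 35.3 to 48 in R and 3.04 to 10.5 in L (2.78 ± 0.16). The eye determination genes eya and so, which lamina precursors also use, were higher in R by 2.98 ± 0.19 and 3.02 ± 0.17, with no overlap of the classes. Among 21 lamina factors 14 were lower in R and 4 higher, with a median of -0.94, and 5 were lower with 2 pooled classes.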

How the data were processed

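RNA from 16 sorted libraries was measured as RPKM per gene, deposited by the authors. The notes on processing by the submitters name TopHat and the build BDGP5. For versions, the counting tool, the annotation and strand use, the sources used here give nothing. Genes with RPKM of 1 or more in at least 2 libraries were tested with limma 3.58.1 in R 4.3.3 on log2(RPKM + 1), with 7 type means, an intensity trend and Benjamini-Hochberg adjustment over 9346 genes. RPKM steps gave relative depth, but at most 74.0% of low values lay within 0.05 of whole reads, so no count test was run. Depth covers counting error only. Replicate numbers were not used to pair libraries. Deviations of same-numbered libraries correlated from -0.249 (L3 and L5) to 0.32 (R7 and R8), with 0.297 for L4 and L5. Whether equal numbers mark a shared batch was not settled. Members and gene lists were chosen with earlier results of these data known. Genes named class-wide were the 15 each way with the widest gap, with at least 10 RPKM in every library of the higher class; others come from the lists. Exon overlap came from a current annotation, by gene identifier. The identifiers given for chp, scro, rdgC, Med and ttv had no match there. The code was tested on simulated data. Alternatives were other filters, a pseudocount of 0.1, quantile and median scaling, a 2-fold threshold, a replicate block, 2 pooled classes and leaving out libraries.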

Additional observations from a re-analysis of the deposited data

Results flagged for a closer look

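Of 130 genes whose 4 L3 libraries were compared, 5 had a library set apart from the other three by more than Dixon's critical value for 4 values, and chance flags about 1 in 20 groups. The scaffold gene inaD was at 7.45 RPKM in L3 replicate 1, below the others. The phospholipase gene norpA was at 24.0 in L3 replicate 4, and the phosphatase gene rdgC at 11.6 in L3 replicate 3, both above the others. The receptor gene Ror was at 98.3 in L3 replicate 1, above the others, and the aldolase gene Ald at 23.8 in L3 replicate 2, below them.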

How the results depend on the processing

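Of the 127 called genes named in the text, 0 changed sign under the alternatives run, 22 lost their call against a 2-fold threshold, 9 with 2 pooled classes and 1 (svp) with a pseudocount of 0.1. Leaving out 1 library ended 2 calls, those of beta-Spec and svp. Against 2963 genes higher and 2821 lower, the 2-fold threshold gave 709 and 617, and 2 pooled classes gave 2317 and 1842. Leaving out each library gave 2496 to 3113 higher and 2378 to 3037 lower. The uncalled difference of jeb turned from -0.05 to 0.040 without L4 replicate 1 (-0.145 without L4 replicate 2) and to 0.058 without the 4 L3 libraries. The cause was not tested. With the replicate number as a block, 3246 genes were higher and 3306 lower. Deviations of same-numbered libraries correlated at a median of 0.0609 and at up to 0.32, so a batch shared by some types was not excluded. With 2 libraries in most types, the spread within a type is poorly known. A gene of 2 kb with 3 reads had an RPKM of 0.00977 to 0.0319, depending on depth, so values below this carry little information.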

Other observations

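Gene families were picked after their values were seen and are described without a test of the family, against 31.7% higher and 30.2% lower over all genes. Some families of housekeeping machinery were mostly higher in R. Spliceosomal and other small nuclear RNAs were not, with 11 of 20 lower (7 with 2 pooled classes), 1 higher and a median of -0.90. For 0 of the 20 every L library lay above every R library. The set holds 7SK, which is not spliceosomal, and several copies each of U1, U2 and U6 that can share reads. Of 46 proteins of the large mitochondrial ribosomal subunit, 33 were higher (23 to 37 leaving out 1 library) and 3 lower, with a median log2 difference of 0.70. Of 26 of the small subunit 17 were higher and 1 lower (median 0.77), against a median of -0.02 over all genes. For 12 of the 46 and 11 of the 26 every R library lay above every L library. In some called higher, L2 was level with R, such as mRpL12 (326 RPKM in L2, 316 in R7 and 291 in R8). Among 28 subunits of the nuclear RNA polymerases, 22 were higher and 0 lower (median 0.78). For 17 of the 28 every R library lay above every L library, against 14.8% of all genes. The largest subunit gene of polymerase I, RpI1 (now Polr1A), was at 10 and 11.2 RPKM in R7 and 7.54 and 9.26 in R8, against 0.497, 2.18 and 3.9 (lowest, median and highest) in the lamina, and limma gave 1.73 ± 0.16 (SE), adjusted p = 8.35e-07. The shared subunit gene Rpb5 (now Polr2E) was higher by 1.59 ± 0.24. Of 15 members of the proteasome core 13 were higher and 0 lower (median 0.99), among them near-identical copies of Prosalpha1 that can share reads.

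The list of ER folding and secretion genes had shares near those of all genes, with 9 of 30 higher and 7 lower (median -0.06), and 11 lower under quantile normalization or 4 with 2 pooled classes. Some smaller families of the ER, picked by their values, were higher. Of 10 genes that build the N-glycan precursor, 8 were higher and 0 lower (median 0.93). Of 10 genes of the ER membrane protein complex, which inserts membrane proteins, 8 were higher, which became 5 without R7 replicate 1, R7 replicate 2 or R8 replicate 2. Its member CG3501 (now EMC8-9) was at 199 to 253 RPKM in R and 38.8 to 83.8 in L, with 13% of its exonic bases overlapped. Of 13 genes of GPI anchor synthesis, 8 were higher (4 with 2 pooled classes) and 1 was lower, CG11190 (now PIG-T), at -1.21 ± 0.10. Of 17 odorant receptors 13 were lower in R and 3 higher (median -0.75), and 6 were lower with 2 pooled classes. For 5 of the 17 every L library lay above every R library (11.7% of all genes). Most of the 5, such as Or2a and Or13a, were under 1 RPKM in every R library. They passed the filter only through lamina libraries, so the 2 shares cannot be compared. Of 32 genes with Cyp symbols, most of them cytochrome P450 genes, 19 were lower and 6 higher (median -0.44). The lower count fell to 11 without R7 replicate 1 or R8 replicate 1, 12 without R8 replicate 2 and 3 with 2 pooled classes. The 6 higher include Cyp1 and CG8336 (now Cyp40), which are cyclophilin and not cytochrome P450 genes (0.74 and 0.48). For 1 of the 32 every L library lay above every R library. Most members of both families called lower were under 1 RPKM in every R library and passed the filter only through lamina libraries. Some did so through 1 lamina type, such as Or67d (12.9 RPKM in L2) and Cyp313a2 (14.9 in L1). Others did so through several, such as Cyp4p1 (7.03 in L2 and 16.6 in L3). For all of those, a lower level in R came with the filter, so the lower counts cannot be set against the share of all genes. Of 74 small nucleolar RNAs 30 were higher and 5 lower (median 0.35), with 7 higher among those at 5 RPKM or more in at least 2 libraries. Members below that level were not tested there, so the 7 cannot be set against the 74 or the share of all genes.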
